A study of Sus scrofa domesticus with 36 samples.

Results

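The genes described here are 3 keratins (KRT15, KRT8 and KRT18), 4 components of desmosomes (DSP, PKP1, DSG1 and DSG3) and the transcription factor TP63. They were chosen by symbol, and all 8 matched a row among the 25322 pig genes of the count table. Their RNA was measured in subcutaneous backfat and in longissimus dorsi, a long back muscle, of 18 pigs of 1 commercial cross (Danbred 600 × Newsham NC32 in the growth protocol), which gave 18 adipose and 18 muscle libraries. The labels name no treatment, and the 2 libraries whose labels share a number, Sample_77-BF (adipose) and Sample_77-L (muscle) for example, come from 1 animal. A pig is called here by the shared start of its labels, as Sample_77. Of the pigs, 9 were slow growers, from the lowest percentile 10 of 1054 weaned pigs, and 9 came from percentiles 60 to 70, but the labels give no growth class for a single pig, so the contrast described here is between tissues. The study text puts the sampling at 3 weeks after weaning, whereas the labels give an age of 16 to 17 days with the stage named weaning, and these statements are at odds. The breed entries of the labels carry a number after the second parent line that differs from sample to sample and is not explained there.

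Keratins are the intermediate filament proteins of epithelia, and a filament needs a type I and a type II partner. KRT8 (type II) and KRT18 (type I) form the filaments of single-layered and glandular epithelia, whereas KRT15 is a type I keratin of the basal layer of stratified epithelia and of hair follicles. Desmosomes are button-like junctions that rivet neighbouring epithelial cells together: the cadherins DSG1 and DSG3 cross the gap between the cells, plakophilins such as PKP1 gather them into a plaque, and desmoplakin (DSP) ties the plaque to the keratin filaments. TP63 is the factor that basal cells of stratified epithelia depend on. None of the 8 is a usual marker of adipocytes or of skeletal muscle fibres, and subcutaneous backfat lies beneath the skin, whose epidermis, hair follicles and glands are epithelia.

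The libraries held 2990913 to 5373406 gene counts in adipose and 4716541 to 6216459 in muscle. The labelled tissues carried their defining genes: PLIN1, the coat protein of adipocyte lipid droplets, had 288 to 699 CPM (counts scaled to a common library size) in adipose and 1.44 to 29.6 in muscle, and ACTA1, skeletal muscle actin, had 22408 to 314848 CPM in muscle. In adipose ACTA1 ran from 52.4 to 17526 CPM, with the highest values in Sample_731, Sample_391, Sample_911 and Sample_176. The scaling used trimmed-mean library factors, which averaged 1.62 in adipose and 0.626 in muscle. Gene lengths were not used, so levels are compared between libraries of 1 gene and not between genes. In bulk tissue, fewer cells of a type and less RNA per cell cannot be told apart.

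On rounded counts, the 3 keratins were all higher in adipose than in muscle of the same animal, in 18 of 18 pigs each. Of the 8 genes, KRT15 had the largest spread over adipose libraries (SD 2.38 in log2 CPM), from 0.131 CPM in Sample_176 through a median of 7.06 to 143.9 CPM in Sample_659. The 3 lowest libraries (Sample_176, Sample_572 and Sample_231) held 0.131 to 0.372 CPM, and the other 15 all held at least 10 counts. In muscle the deposited counts of KRT15 summed to 2.5 over 18 libraries, with 0.5 in each of 5 and 0 in the other 13. Pooled over libraries, the level in adipose was 607-fold that in muscle (95% interval 189.5 to 3651, covering counting error only). On rounded counts, the ranges of the tissues did not overlap for KRT15, but this rests on rounding 0.5 to 0 in muscle. Sample_176 had 1 deposited count in adipose and 0.5 in muscle, with scaled library sizes of 7627428 and 2772715. On deposited counts its muscle level was therefore the higher, and the ranges overlap. Reads of keratin genes can be shared with paralogues and processed pseudogenes. The deposited counts are named unique, and the sources used here do not explain further how such reads were handled.

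KRT8 had 9.67 CPM in the lowest adipose library (Sample_114), a median of 20.2 and 52.3 CPM in the highest (Sample_659), against 1.92, 4.92 and 13.9 CPM in muscle. Of the adipose libraries, 13 lay above every muscle library and the other 5 within the range of muscle. KRT18, its partner, had 3.15 CPM in the lowest adipose library (Sample_176), a median of 8.21 and 25.5 CPM in the highest (Sample_491), and 0, 0.708 and 2.22 CPM in muscle, where deposited counts reached 8.5 at most. The ranges of KRT18 did not overlap. Ranges that do not overlap, with adipose above, were found for 14.8% of all genes tested. In the quasi-likelihood test of edgeR, KRT8 was higher in adipose by 1.97 on the log2 scale (SE 0.259, adjusted p = 7.5e-09) and KRT18 by 3.28 (SE 0.340, adjusted p = 2.56e-11). Of all 12542 genes tested, 46.7% passed with adipose above and 39.2% with muscle above, so a call by itself was common. The keratin genes KRT8 and KRT18 neighbour each other in the Sscrofa11.1 gene table, on chromosome 5 with 1 lncRNA gene between them.

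DSP, the plaque protein that binds the filaments, was found in every library of both tissues and spread differently in them. In adipose it had 16.0 CPM in the lowest library (Sample_231), a median of 44.7 and 223.6 CPM in the highest (Sample_491), whereas muscle ran from 71.1 CPM (Sample_572) through 113.8 to 152.9 CPM (Sample_176). Adipose libraries thus fell on both sides of muscle: 3 lay above every muscle library (Sample_491, Sample_659 and Sample_998), 11 below every one, and the remaining 4 in between. Within pigs, DSP was higher in muscle in 13 and higher in adipose in 5 (Sample_77, Sample_491, Sample_659, Sample_889 and Sample_998). The SD of log2 CPM was 1.27 in adipose and 0.322 in muscle. A larger SD than that of DSP was found for 1.603% of the tested genes in adipose and for 62.0% in muscle.

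The tissue difference of DSP, -0.59 on the log2 scale (SE 0.297), did not pass the threshold of 0.05 in edgeR (adjusted p = 0.0631), and its call and direction changed with the settings. With the pig as a block it was -1.09 (adjusted p = 0.00364), and DESeq2 gave -0.62 (adjusted p = 0.0379). Scaling by library totals alone turned it to 0.83 (adjusted p = 0.0123), but this scaling moved the median of all genes from 0.14 to 1.505. Relative to the median gene, DSP was at -0.73 with trimmed-mean factors and at -0.67 with library totals. Leaving out Sample_491, Sample_659, Sample_77, Sample_889 or Sample_998 brought it past the threshold in edgeR, at -0.79, -0.74, -0.65, -0.68 and -0.70 (adjusted p = 0.0132, 0.0234, 0.0493, 0.0418 and 0.0329). Leaving out the 4 pigs with the most ACTA1 in adipose gave -0.36 (adjusted p = 0.313), and leaving out the 7 pigs with at least 10 counts of DSG1, DSG3 and PKP1 in adipose, among them the 5 with the most DSP there, gave -1.81 (adjusted p = 2.75e-07). Leaving out any of those 5, singly or among the 7, lowers the adipose level of DSP, so nothing is read from the values without them.

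**Figure D1:**
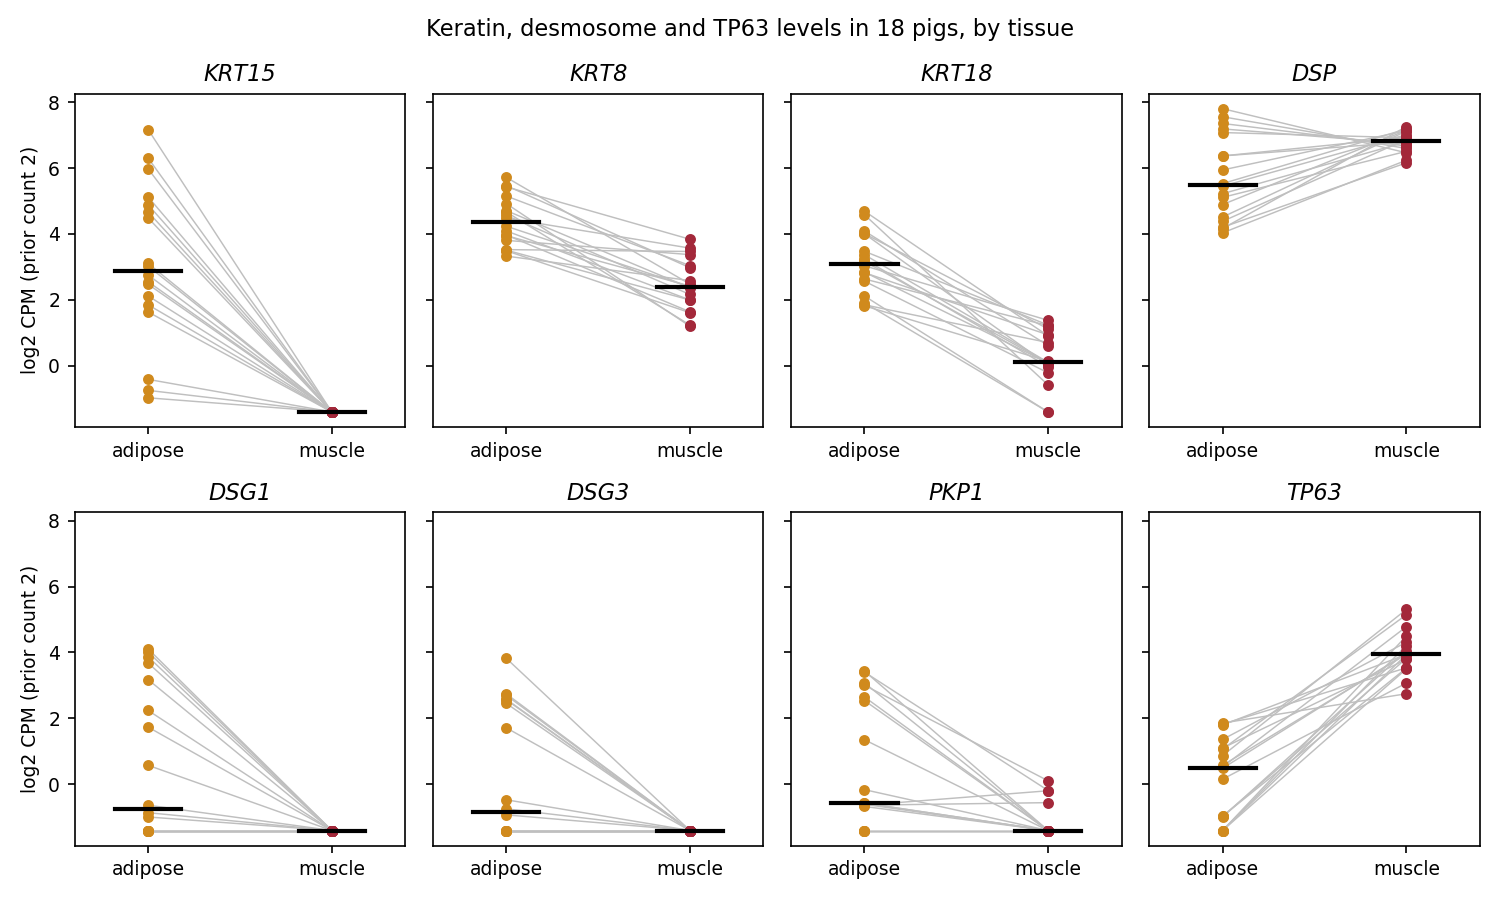
Level of each of the 8 genes (log2 CPM with a prior count of 2) in the adipose and muscle library of every pig; points are libraries, grey lines join the tissues of 1 pig and black bars are medians of 18 libraries. On rounded counts, KRT15, KRT18 and TP63 do not overlap between tissues. DSP spreads from 16.0 to 223.6 CPM around the narrow muscle range, and DSG1, DSG3 and PKP1 lie near the floor in muscle and in most adipose libraries.

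PKP1, DSG1 and DSG3 were close to absent from muscle and reached at least 10 counts in 7 of 18 adipose libraries, though 17 of 18 held some PKP1 and 14 of 18 some DSG1 or DSG3. Plakophilin PKP1 ranged in adipose from 0 CPM through a median of 0.293 to 10.4 CPM in Sample_659, and 7 of 18 libraries held at least 10 counts. Its deposited counts in muscle summed to 9, at most 1.5 in a library, which put the pooled adipose level at 20.1-fold that of muscle (95% interval 10.6 to 44.0, counting error only). It was higher in adipose in 12 pigs, higher in muscle in 2 and at 0 in both tissues in 4 after rounding.

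DSG1, a cadherin of the upper layers of stratified epithelia, ranged in adipose from 0 through a median of 0.218 to 16.9 CPM in Sample_659. DSG3, the cadherin of the lower layers, ranged from 0 through 0.182 to 13.8 CPM, again with Sample_659 at the top. Both were listed at 0 in all 18 muscle libraries. Against a floor of 3 counts over the whole muscle group, DSG1 was at least 90.3-fold higher in adipose and DSG3 at least 53.4-fold higher. Counts of 10 or more were found in 7 adipose libraries for each, and the deposited count was 0 in 4 adipose libraries for each. In the Sscrofa11.1 table these 2 cadherin genes lie on chromosome 6 with DSG4 between them.

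The same 7 pigs had at least 10 counts of each of these 3 genes: Sample_242, Sample_491, Sample_659, Sample_77, Sample_889, Sample_911 and Sample_998. Among them, DSG1 ran from 2.95 CPM (Sample_889) to 16.9, DSG3 from 2.90 CPM (Sample_242) to 13.8, and PKP1 from 2.17 CPM (Sample_242) to 10.4. In the 11 other adipose libraries, DSG1 reached 1.11 CPM at most (Sample_186), DSG3 0.343 CPM and PKP1 0.514 CPM (both Sample_391). The adipose libraries therefore fell into separate sets for these 3 genes, divided at 10 counts, a value chosen after the levels were seen. KRT15, KRT8, KRT18, DSP and TP63 showed no such gap: Sample_186, outside the 7, had 82.4 CPM of DSP and 22.1 CPM of KRT15, more than the 61.2 and 6.37 CPM of Sample_242.

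KRT15, PKP1, DSG1 and DSG3 did not pass edgeR's filter on low counts. KRT15 had at least 10 counts in 15 of 18 adipose libraries. It entered the test and was higher in adipose when Sample_176, Sample_231 or Sample_572 was left out (edgeR adjusted p = 1.36e-05, 1.61e-05 and 1.51e-05). With 0 in every muscle library after rounding, KRT15 passed the filter there through adipose alone. Without the filter, where 44.9% of 20197 genes passed with adipose above and 28.7% with muscle above, all 4 passed (edgeR adjusted p = 4.87e-05 for KRT15, 6.99e-05 for PKP1, 0.00207 for DSG1 and 0.00280 for DSG3). KRT15, DSG1 and DSG3 were at 0 in every muscle library after rounding and could only be called for adipose, so nothing is read from the direction of their calls. When those 7 pigs were left out as well, KRT15 passed (edgeR adjusted p = 0.00205). For PKP1, DSG1 and DSG3, by whose counts the 7 pigs were picked, nothing is read from leaving them out.

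TP63 had the opposite direction. In muscle it ran from 6.33 CPM (Sample_889) through a median of 14.99 to 39.2 CPM (Sample_242), and in adipose from 0 through 1.04 to 3.24 CPM (Sample_889). It was higher in muscle in 18 of 18 pigs and its ranges did not overlap, as for 17.6% of all genes tested with muscle above. The difference was -3.85 on the log2 scale in edgeR (SE 0.360, adjusted p = 1.96e-12). It was -2.47 with library totals alone and -5.25 without the 7 pigs. Those pigs included Sample_889, Sample_491, Sample_659 and Sample_77, which had the most TP63 in adipose. Leaving them out lowers the adipose level, so nothing is read from the larger difference. The counts are per gene and do not separate the isoforms of TP63 that start at different promoters. Strand is not stated for these libraries, so reads from an overlapping antisense gene could not be told apart.

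**Figure D2:**
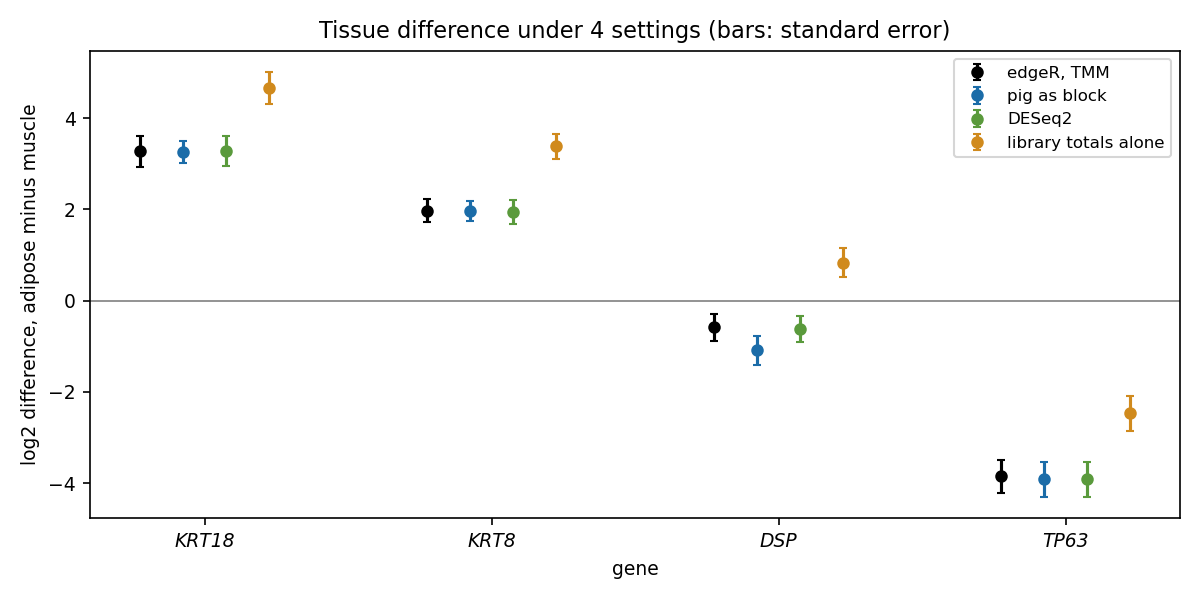
Log2 difference between adipose and muscle (positive: higher in adipose) for the 4 genes that passed the filter, with its standard error, under 4 settings with 18 libraries a tissue. KRT18 and KRT8 stay above 0 and TP63 below it under all 4, while DSP changes from -0.59 to 0.83 when library totals replace the trimmed-mean factors.

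Over the 18 adipose libraries, the keratins, DSP and TP63 were compared in 10 pairs by Spearman's rho with 100000 permutations of the pig numbers. P values were adjusted over all 141200 pairs of the 8 genes with the 17651 genes that had at least 1 count in at least 6 adipose libraries. Positive calls were made for 1.8% of those pairs in all and for 7 of the 10 named here. Of the 10, KRT15 and DSP followed each other most closely, with rho 0.971 (permutation p = 1e-05, the smallest that 100000 permutations give, adjusted p = 0.00273) and Pearson's r 0.933 (adjusted p = 0.00220). Without the 2 libraries farthest from the median of KRT15 (Sample_659 and Sample_176), rho was 0.968 and r 0.924.

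KRT8 and KRT18, the partners of 1 filament, had rho 0.886 (permutation p = 1e-05, adjusted p = 0.00273) and r 0.905 (adjusted p = 0.00220). Without Sample_659 and Sample_889, rho was 0.847 and r 0.875. KRT18 also went with DSP at rho 0.872 and r 0.868, with KRT15 at rho 0.853 and r 0.777, and with TP63 at rho 0.763 and r 0.724 (permutation adjusted p = 0.00273, 0.00273 and 0.0305 for rho, and 0.00220, 0.0118 and 0.0437 for r). Leaving out the 2 farthest libraries gave r of 0.802, 0.680 and 0.619 for these 3 pairs.

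TP63, although low in adipose, went with DSP at rho 0.849 (permutation p = 2e-05, adjusted p = 0.00418) and r 0.875 (adjusted p = 0.00220), and with KRT15 at rho 0.784 (permutation p = 0.00022, adjusted p = 0.0187) and r 0.787 (adjusted p = 0.0123). Without the 2 farthest libraries r was 0.834 and 0.753. TP63 had at least 10 counts in 7 adipose libraries, and low counts limit the precision of these values. The direction between tissues and the direction over adipose libraries thus differed for TP63: it was lower in adipose than in muscle, and higher in those adipose libraries that held more DSP.

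The 3 pairs that did not pass were KRT8 with KRT15, DSP and TP63. Their rho values were 0.666, 0.670 and 0.525, with r of 0.593, 0.703 and 0.516 (permutation p = 0.00332, 0.00305 and 0.0272 for rho, adjusted p = 0.115, 0.109 and 0.369, and adjusted p = 0.207, 0.0614 and 0.373 for r). Without the 2 farthest libraries, r was 0.425, 0.596 and 0.326. The looser relation can be read from single pigs. Sample_231 and Sample_572 had 22.0 and 23.3 CPM of KRT8, above its median of 20.2, with 16.0 and 18.1 CPM of DSP and 0.372 and 0.217 CPM of KRT15, among the lowest of each. Sample_911 was placed the other way, with 15.3 CPM of KRT8 and 62.7 CPM of KRT15. Whether KRT8 was related to DSP less closely than KRT18 was not tested.

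**Figure D3:**
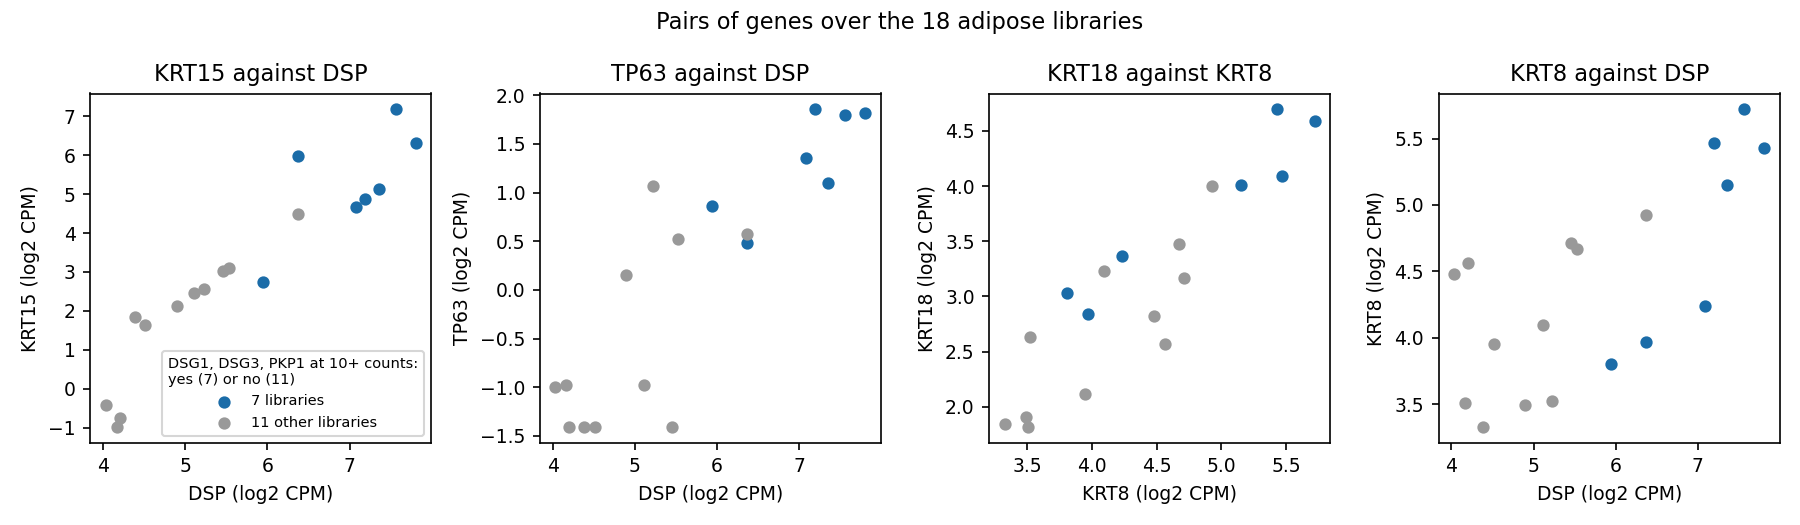
4 pairs of genes over the 18 adipose libraries (log2 CPM, prior count 2), 1 point a library, with the 7 libraries that held at least 10 counts of DSG1, DSG3 and PKP1 in blue and the other 11 in grey. KRT15 and DSP lie close to 1 line (rho 0.971), KRT18 and KRT8 likewise (rho 0.886), and KRT8 against DSP is looser (rho 0.670), with grey libraries that are high in KRT8 and low in DSP.

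Because PKP1, DSG1 and DSG3 split the libraries, no rho over all 18 libraries is described for their 18 pairs, which are given within the 7 and within the 11 libraries. Within the 7, rho was above 0 for all 28 pairs of the 8 genes, from 0.179 to 0.964 with a median of 0.696. By exact permutation, 10 of the 28 had a p under 0.05 before adjustment, where 3.06% of all pairs of these genes with any gene did with a positive rho, and 0 after it, the smallest exact p being 0.00278 (KRT15 with DSG3, rho 0.964). The plaque protein PKP1 had rho 0.857 with DSG1 (exact p = 0.0238) and 0.929 with DSP (exact p = 0.00675), and the cadherins DSG1 and DSG3 had 0.571 (exact p = 0.200). With 7 libraries the smallest exact p is 0.000397, which cannot pass an adjustment over all genes unless many pairs reach it.

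Within the 11 other libraries, 22 of 28 pairs had rho above 0, from -0.335 to 0.964 with a median of 0.489. By permutation, 7 had a p under 0.05 before adjustment, where 4.19% of all pairs with any gene did with a positive rho, and 0 after it. KRT15 with DSP was again the closest pair at rho 0.964 (permutation p = 2e-05, adjusted p = 0.0910), followed by KRT8 with KRT18 at rho 0.845 (permutation p = 0.00194, adjusted p = 0.524). KRT8 with DSP was at 0.518 there and at 0.821 within the 7. Of the 6 pairs below 0, 5 were of DSG3 and the other was KRT8 with PKP1. DSG3 reached 2 counts and PKP1 3 counts at most in these libraries, so their order there rests on single reads.

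**Figure D4:**
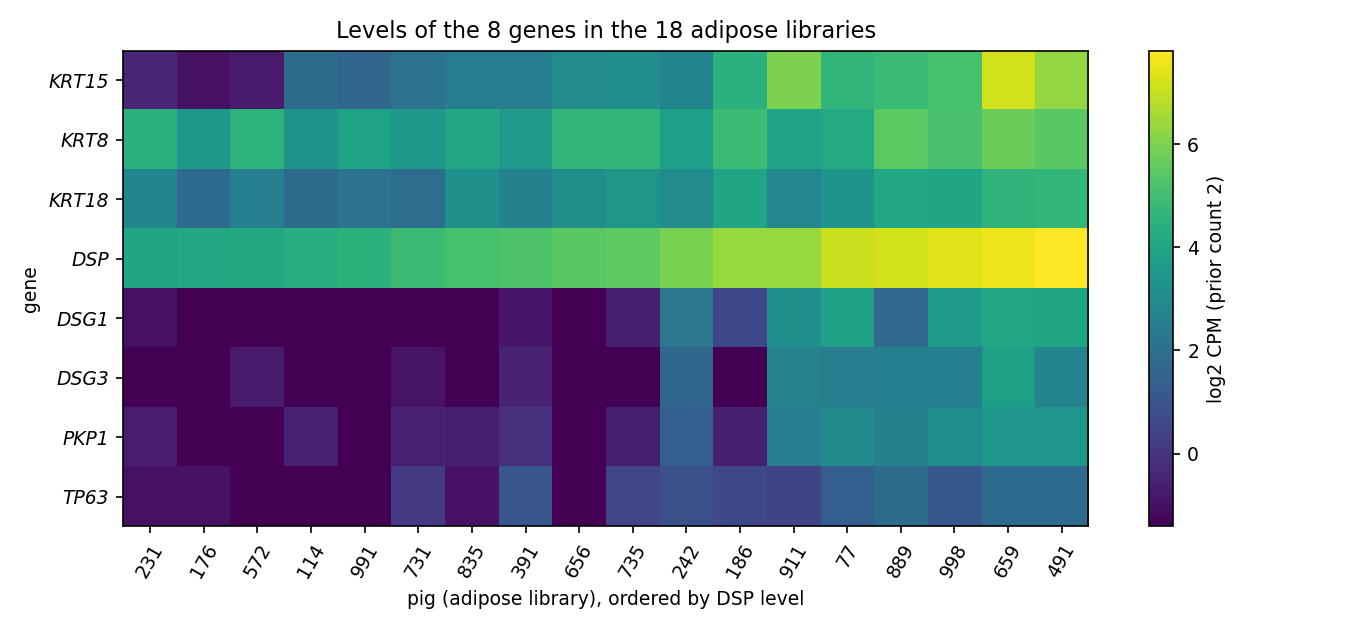
Level of the 8 genes (rows, log2 CPM with a prior count of 2, colour scale at the right) in the 18 adipose libraries (columns, labelled by pig and ordered by DSP). KRT15 brightens with DSP from left to right, DSG1, DSG3 and PKP1 are dark except in 7 libraries, and KRT8 follows the order of DSP loosely (rho 0.670).

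Other genes of the same structures were read from 17 lists of cell types and pathways, leaving out the 8 genes themselves. Of the 8 other desmosome genes with a row, 2 passed the filter and both were higher in adipose in edgeR: plakoglobin JUP, the armadillo protein of the plaque, by 1.14 on the log2 scale (SE 0.0853) and PKP4 by 0.37 (SE 0.0928), with a list median of 0.75 against 0.14 for all genes tested. Without the filter, all 8 were called higher in adipose, where 44.9% of all genes were. Of the 8, 1 was at 0 in every muscle library after rounding and could only be called for adipose. Of the 7 that could be compared with DSP over the adipose libraries, 4 were called with a positive rho, where 2.64% of all 17650 genes were: DSC2 (0.967), PKP3 (0.965), DSG2 (0.950) and PKP2 (0.913), a desmocollin, a desmoglein and 2 plakophilins. Pearson's r of these 4 with DSP was 0.971, 0.976, 0.953 and 0.920. By r, 5 of the 7 were called, where 3.07% of all genes were. JUP (rho 0.595, permutation adjusted p = 0.230) and PKP4 (rho 0.205, adjusted p = 0.831) did not pass. JUP had 57.8 to 113 CPM in adipose and 23.8 to 52.5 CPM in muscle.

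KRT5 and KRT14, the usual keratin pair of the basal layer, were not analysed here. Of the basal layer genes other than KRT15 and TP63, 4 of 5 tested were higher in adipose, where 46.7% of all tested genes were. With DSP, 3 of 7 were called by rho and 5 by Pearson's r, where 2.64% and 3.07% of all genes were. COL17A1, the collagen of the hemidesmosome, had 0.524 to 110 CPM in adipose and rho 0.965 with DSP (r 0.952), and LAMA3, a laminin chain of the epithelial basement membrane, was higher in adipose by 4.19 (SE 0.226) with rho 0.858 (r 0.868). The integrin genes ITGA6 and ITGB4 were higher in adipose in edgeR by 0.42 (SE 0.133) and 2.11 (SE 0.160), but their rho with DSP was 0.294 and 0.379 (permutation adjusted p = 0.723 and 0.611). Of the cornified layer genes, 1 of 2 tested was higher in adipose (TGM3 by 1.99, SE 0.354), where 46.7% of all tested genes were. With DSP, 1 of 11 was called by rho, against 5 by Pearson's r, where 2.64% and 3.07% of all genes were. KRT10, the keratin of the upper epidermis, was at -0.01 (SE 0.111, edgeR adjusted p = 0.928), and at 1.37 with library totals alone, where the median gene was at 1.505.

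Hair follicle genes had no member past the filter, and without it 10 of 12 were called higher in adipose, where 44.9% of all genes were. Of the 12, 4 were at 0 in every muscle library after rounding and could only be called for adipose. Their summed level ran from 3.26 to 347 CPM in adipose, highest in Sample_998, and from 0.576 to 2.55 CPM in muscle. KRT25, a keratin of the inner root sheath, exceeded 5 CPM only in the 7 pigs with at least 10 counts of DSG1, DSG3 and PKP1: Sample_998 had 161 CPM, Sample_77 had 144.8, Sample_491 had 79.2, Sample_889 had 49.8, Sample_242 had 44.4, Sample_911 had 23.6 and Sample_659 had 12.2 CPM, and the other 11 pigs had 2.98 CPM at most (Sample_231). The order within the 7 was not that of KRT15 or DSG3, which were highest in Sample_659. KRT27, KRT71 and KRT72, from the same sheath, were also highest in Sample_998, at 48.7, 55.8 and 53.7 CPM. Of 11 hair follicle genes, 5 were called with DSP by rho and 9 by Pearson's r, where 2.64% and 3.07% of all genes were. KRT75 was the closest (rho 0.941, r 0.959). The 7 pigs include the 5 with the most DSP in adipose. Any gene confined to these 7 therefore scores high with DSP, and nothing is read from these counts. The part of follicle RNA in the levels of the 8 genes was not tested.

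Genes of epithelial junctions and surfaces had 10 of 13 members called with DSP, where 2.64% of all genes were, and a median rho of 0.946. SPINT2, an inhibitor of epithelial serine proteases, had rho 0.983 (r 0.977) and was higher in adipose by 4.30 (SE 0.352), and the cell adhesion molecule EPCAM had rho 0.971 (r 0.923). The claudin CLDN4 did not follow it: its rho was -0.0175 (permutation adjusted p = 0.993), although it was higher in adipose by 6.38 (SE 0.378), with 9.39 to 141 CPM and the highest value in Sample_114. Occludin (OCLN) was at rho 0.358. Of 14 transcription and splicing factors of epithelia other than TP63, 12 were called with DSP by rho and 13 by r, where 2.64% and 3.07% of all genes were. Among them were the splicing regulator ESRP1 (rho 0.975, r 0.947), GRHL2 (0.959, r 0.928) and TFAP2A (0.932, r 0.949). Of the 3 tested between tissues, 2 were higher in adipose, among them TFAP2A by 0.83 (SE 0.283), where 46.7% of all tested genes were.

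Some markers of skin glands were called with DSP over the adipose libraries, where 2.64% of all genes were by rho and 3.07% by r. In the sweat and secretory gland list, 5 of 6 were called, including the water channel AQP5 (rho 0.950, r 0.918), lactotransferrin LTF (0.831, r 0.823) and the mucin MUC15 (0.839, r 0.845), and the list summed to 16.6 to 286 CPM in adipose, highest in Sample_491. The list summed to 41.8 to 228 CPM in muscle. Of its 2 genes past the filter, LTF was higher in adipose, by 6.04 on the log2 scale (SE 0.741). The other, the ion carrier SLC12A2, was higher in muscle, at -2.25 (SE 0.202). Without the filter, 5 of the 11 genes of this list passed in edgeR with adipose above. Another 3, SLC12A2 among them, passed with muscle above, where 44.9% and 28.7% of all genes did so. After rounding, 3 of the 11 were at 0 in every muscle library and could only be called for adipose. In adipose, 1 was at 0 in every library and could only be called for muscle. Sebaceous gland genes had 4 of 10 called, with GLYATL2 at rho 0.903 (r 0.866), and not SOAT1 (0.309), FAR2 (-0.0279) or ACSBG1 (-0.385), and summed to 42.7 to 422 CPM in adipose. Myoepithelial genes had 2 of 5 called, ACTG2 (0.926, r 0.945) and CNN1 (0.862, r 0.903). MYLK (0.612, r 0.649) did not pass, and ACTA2 passed by r (0.816, permutation adjusted p = 0.00641) but not by rho (0.684). These 4 are also genes of smooth muscle and do not single out gland cells. Between tissues, 2 of the 5 were higher in adipose and 2 in muscle in edgeR, where 46.7% and 39.2% of all tested genes were. AWAT2, a defining gene of sebocytes, was listed at 0 in every library. The part of these glands in the levels of the 8 genes was not tested.

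Negative calls with DSP were made for 0.0397% of all genes and for none of the listed ones. Of 5 melanocyte genes 0 were called in either direction, TYRP1 was listed at 0 everywhere, and the list summed to 1.97 to 7.96 CPM in adipose. The Merkel cell genes ATOH1 and ISL1 were at 0 in every library. Of the mesothelium list, WT1 reached 0.294 CPM and CALB2 0.398 CPM in adipose, and BNC1, which basal keratinocytes also express, was called (rho 0.830, r 0.860). Of 7 adipocyte genes 0 were called (median rho -0.399, PLIN1 at -0.480), as were 0 of 7 muscle fibre genes (median rho -0.197). PLIN1 had an unadjusted permutation p of 0.0450. For all 8 genes, rho with ACTA1 in adipose lay between -0.426 and 0.133, and with PLIN1 between -0.552 and -0.310. With the total gene count it lay between -0.267 and 0.0939, and with the share of reads assigned to no counted feature between -0.355 and 0.273. None passed after adjustment.

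**Figure D5:**
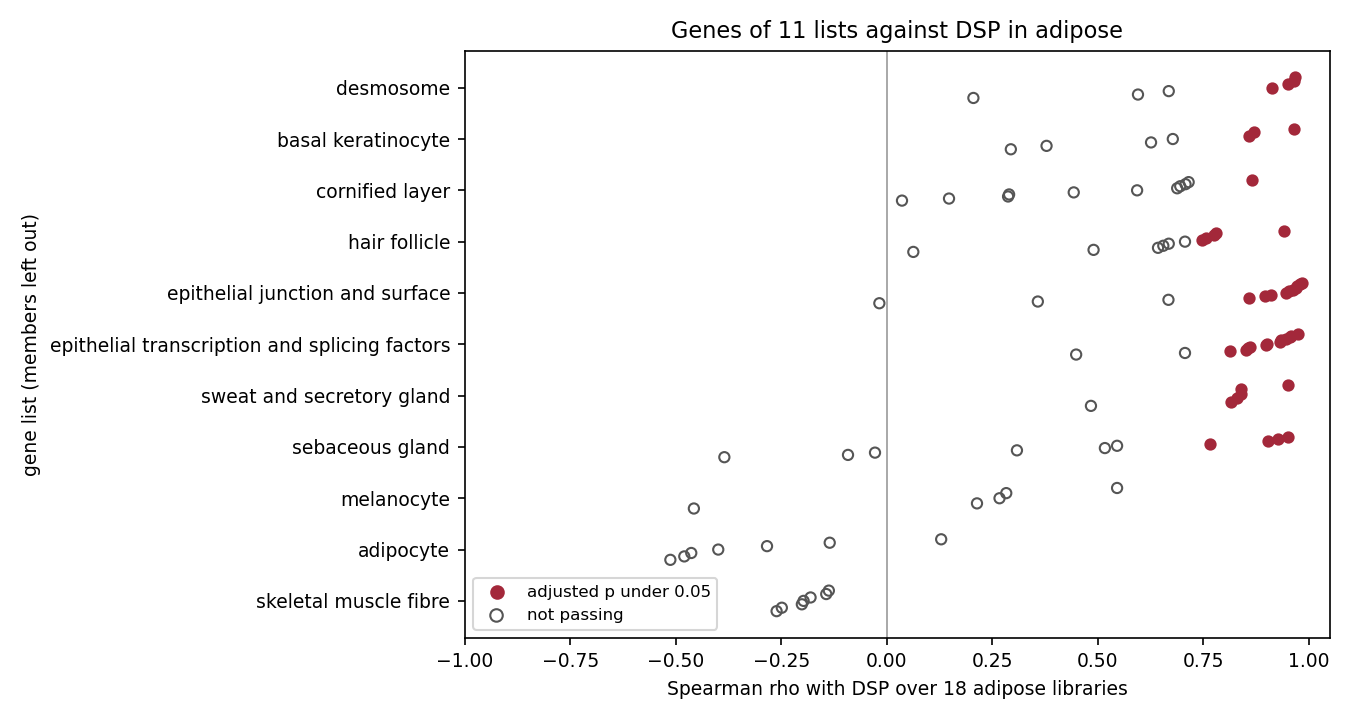
Spearman's rho of each gene of 11 lists with DSP over the 18 adipose libraries, 1 point a gene (the 8 genes left out), filled where the adjusted permutation p was under 0.05. Junction genes, transcription and splicing factors and sweat and secretory gland genes crowd to the right (10 of 13, 12 of 14 and 5 of 6 called, where 2.64% of all genes were). Adipocyte, muscle fibre and melanocyte genes have 0 called.

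The numbers of genes in the whole table that were called with each of the 8 differed. Positive calls were made with DSP for 466 genes (2.64%), with KRT15 for 414 (2.35%), with TP63 for 368 (2.08%), with KRT18 for 347 (1.97%) and with KRT8 for 66 (0.374%). Of the lists, KRT8 had a single gene called, the integrin ITGB4 (rho 0.787, permutation adjusted p = 0.0170), which was not called with DSP. Whether KRT8 differed from DSP in this respect was not tested.

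The 5 named genes of at least 1 CPM with the highest rho over the 18 adipose libraries were SPINT2 (0.983), AP1M2 (0.981), FAM83G (0.979), PROM2 (0.979) and ESRP1 (0.975) for DSP. For KRT15 they were GALNT3 (0.965), DSC2 (0.961), SPINT2 (0.961), EPCAM (0.955) and FAM83G (0.955), so SPINT2 and FAM83G stood in both lists. KRT18 was nearest to GALNT6 (0.915), EPHA1 (0.911), RAP1GAP (0.907), TMEM125 (0.905) and GRB7 (0.904), and KRT8 to ARHGEF16 (0.851), CLDN9 (0.849), FAM118B (0.839), VILL (0.833) and EPHA1 (0.829). The ephrin receptor gene EPHA1 was thus near both partners of the filament. TP63 was nearest to RAPGEFL1 (0.937), VSIG8 (0.935), TJP3 (0.900), LRRC8E (0.899) and PKP3 (0.898), the last a plakophilin.

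For the 3 genes that split the libraries, likeness is given as a description only, since any gene confined to the same 7 libraries scores high. DSG1 was nearest to RHPN2 (0.930), CAB39L (0.909), CDSN (0.906), FZD3 (0.896) and SHTN1 (0.896), where CDSN is corneodesmosin, an adhesive protein of the desmosomes of the cornified layer. PKP1 was nearest to RNF43 (0.899), ATP2B2 (0.897), TRIM29 (0.890), SHTN1 (0.888) and ACSL3 (0.887). DSG3 was nearest to HR (0.882), TNFRSF19 (0.866), KRTAP27-1 (0.861), ACTBL2 (0.850) and DSTN (0.829). HR, hairless, acts in the hair cycle, and KRTAP27-1 is a keratin-associated protein of hair.

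In muscle, DSP and TP63 were compared with all genes in the same way. DSP was called with 9 genes positively and 2 negatively, 0.0713% of 15431 genes, and its nearest were SPAST (rho 0.911), ERGIC1 (0.903), KDM2A (0.882), RBM38 (0.878) and ACVR1 (0.868), each with a permutation adjusted p of 0.0421 and Pearson's r of 0.861, 0.804, 0.789, 0.783 and 0.693. None of these is a keratin, a desmosome gene or an epithelial marker. TP63 was called with 0% of the 15431 genes in muscle, 1079 of them having an unadjusted permutation p under 0.05, and its highest rho was with WBP2 (0.798, adjusted p = 0.0882), LRCH3 (0.779), SGCA (0.754), MT1X (0.738) and GAREM2 (0.734). DSP and TP63, which went together in adipose, had rho 0.0609 with each other in muscle (r 0.0851, permutation adjusted p = 0.958), and DSP and KRT8 had -0.470 (r -0.401, adjusted p = 0.451). Whether these differed from the values in adipose was not tested. The rho of DSP in muscle with ACTA1 was 0.503 (r 0.370, permutation adjusted p = 0.409) and with desmin (DES), the filament protein that DSP binds in heart muscle, 0.482 (r 0.297, adjusted p = 0.436).

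Filament genes of muscle were read beside DSP. Of 7 filament and linker genes of muscle, 6 were higher in muscle in edgeR, where 39.2% of all tested genes were. The 6 included DES at -6.09 (SE 0.535), dystrophin DMD at -3.63 (SE 0.158) and DST, a plakin like DSP, at -1.17 (SE 0.132). VIM was higher in adipose by 2.70 (SE 0.164). With library totals alone 5 were higher in muscle.

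Levels in the tissues of 1 pig were compared for the genes with at least 1 count in at least 6 libraries of each tissue, which KRT8, KRT18, DSP and TP63 met. Of the 15233 genes so compared, 1.09% were called, and 0 of these 4. DSP had rho -0.172 (permutation p = 0.491, adjusted p = 0.811; r -0.0794), KRT8 0.146 (p = 0.563, adjusted p = 0.852; r 0.161), KRT18 0.178 (p = 0.477, adjusted p = 0.805; r 0.296) and TP63 -0.0705 (p = 0.783, adjusted p = 0.941; r -0.00872). At an unadjusted p under 0.05 the count was likewise 0. The 5 pigs with the most DSP in backfat, Sample_491, Sample_659, Sample_998, Sample_889 and Sample_77, had 88.1, 96.5, 101.7, 107.1 and 121 CPM in muscle, where the median was 113.8 CPM.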

How the data were processed

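RNA sequencing libraries (paired reads of 100 nt) of 18 adipose and 18 muscle samples were used. The authors deposited expected counts per gene, not normalised, in steps of 0.5 (35.1% of values not whole). The submitters' processing notes name GSNAP and HTSeq. The sources used here give no versions, genome build, annotation or strand, and on shared reads nothing beyond the word unique in the name of the counts. Counts were rounded (ties to even), and 5 lines that name no gene stayed out. Of a library, 34.5% ± 5.60 was assigned to no counted feature in adipose and 19.9% ± 4.01 in muscle, and 0.759% ± 0.0789 and 0.729% ± 0.0853 were ambiguous (SD, n = 18). Unused columns numbered 0. A table of current names gave symbols for 11804 of 25322 genes and for 8495 of 12542 tested. A Sscrofa11.1 table was used for neighbouring genes only.

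Tissues were compared by edgeR 4.0.16 in R 4.3.3 (quasi-likelihood test, robust, trimmed-mean factors, default filter on low counts), adjusted by Benjamini-Hochberg over all genes at a threshold of 0.05. Each SE was obtained as the log2 difference over the root of F. Correlations used log2 CPM (prior count 2) and two-sided permutation, exact over 5040 orders for 7 libraries. The software was Python 3.11.15, numba 0.67.0, pandas 2.3.3, SciPy 1.17.1, NumPy 2.4.6 and Matplotlib 3.10.9. Both tests were checked on simulated data. Intervals and floors (3 counts) cover counting error only, since reads without molecular identifiers are not independent molecules.

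Libraries that share a number are from 1 animal, so the numbers pair the tissues. The deviations of a pig's libraries from the tissue means correlated at 0.236 on average (0.0973 to 0.359), and at -0.0138 between different pigs. The text names the 8 genes, at most 4 genes per list (those with the highest adipose mean) and the 5 nearest genes of each of the 8. PKP2, KRT75, AWAT2 and TYRP1 were named after their values were seen. The 8 genes and the lists were chosen with earlier results of these data known. Alternatives were the pig block, library totals, no filter, DESeq2 1.42.0, other prior counts and each pig left out. Results for some genes of the lists are not reported here.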

Additional observations from a re-analysis of the deposited data

How the results depend on the processing

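KRT8, KRT18 and TP63 kept their direction and their call in the tissue comparison under all 24 alternatives run. With the pig number as a replicate block, 2 of the 8 genes were called higher in muscle (1 without it) because DSP passed, and of the listed genes ACTG2 lost its call with this pairing (0.61, adjusted p = 0.229). The calls of KRT8, KRT18 and TP63 did not change. KRT15, PKP1, DSG1 and DSG3 did not pass the filter and were not tested with the block. DESeq2 gave 2, leaving out the 7 pigs high in DSG1, DSG3 and PKP1 gave 2, and leaving out each pig in turn gave 1 to 2. Without the filter, 6 genes were called higher in adipose (2 with it), since 4 more genes entered. Of these, KRT15, DSG1 and DSG3 were at 0 in muscle after rounding and could only be called for adipose. Leaving out Sample_176, Sample_231 or Sample_572 gave 3 higher in adipose, since KRT15 then passed the filter. Library totals alone reversed DSP between tissues to 0.83, its correlation between tissues to 0.0341 and that of TP63 to 0.148. Over all 18 adipose libraries 20 of 28 pairs of the 8 genes, those of the genes that split the libraries included, and 7 of 10 pairs of the 5 without separate sets were called. Within the 7 libraries 0 and 0 were, and within the 11 other libraries 0 and 0, with fewer samples. Library totals alone gave 17 and 6. Over all 18 libraries, positive calls were made for 1.8% of all pairs of the 8 genes with any gene. Nothing is read from the calls of pairs with PKP1, DSG1 or DSG3, since genes confined to the same 7 libraries score high together. Within the 11, rho was reversed for DSG3 with KRT15 (-0.104), KRT8 (-0.231), KRT18 (-0.220), DSP (-0.0405) and DSG1 (-0.0067), and for KRT8 with PKP1 (-0.335); the cause was not tested. The alternatives that leave out 4 or 7 named pigs and those within sets of libraries were chosen after seeing the data. Depth limits PKP1, DSG1, DSG3 and TP63 in adipose, and KRT15 and KRT18 in muscle.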

Other observations

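Sample_491 had the highest adipose value of many epithelial lists at once: its sums were 351 CPM for basal keratinocyte genes, 370 CPM for junction and surface genes, 148 CPM for epithelial transcription and splicing factors, 286 CPM for sweat and secretory gland genes and 422 CPM for sebaceous gland genes. LTF alone made up 219 of the 286 CPM, and GLYATL2 354 of the 422 CPM. Sample_186, outside the 7 libraries with at least 10 counts of DSG1, DSG3 and PKP1, had sums of 214, 211, 84.3, 223 and 301 CPM for the same lists, and 8.6 CPM for hair follicle genes, against 195 CPM in Sample_491 and 347 CPM in Sample_998. Sample_889 had the highest melanocyte sum, 7.96 CPM, and the highest cornified layer sum, 40.7 CPM.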
